A study of Mus musculus with 13 samples.

Results

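H3K27ac, the acetylation of lysine 27 of histone H3, was compared between mouse macrophages exposed to LPS alone and macrophages that met IL-10 only in the final 30 min of the same LPS exposure. The comparison used 6 of the 13 libraries of the study, 3 in each group, and all 40691 consensus regions of the table, of which 36621 were tested. The cells were bone marrow-derived macrophages of the strain 129S6/SvEvTac with the genotype IL10-/-RAG2-/-, grown from marrow precursors for 5 days in medium conditioned with M-CSF. This genotype holds for every group, the controls included, so no group can produce IL-10, and the donor mice lack mature T and B cells. In the LPS group the cells received LPS at 1 ng/mL for 195 min. In the late IL-10 group they received LPS for the same 195 min, and IL-10 was present for the final 30 min only. The labels give 1 ng/mL of IL-10 for the continuous schedule, in which both agents were present for 195 min, and do not repeat the dose for the late one. The untreated and continuous groups, also 3 libraries each, are used here as background and for comparison. Each group was made from 3 independent pools of macrophages, and replicates 1, 2 and 3 were treated as pools 1, 2 and 3.

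LPS, a component of bacterial outer membranes, binds Toll-like receptor 4 and activates NF-kB, MAP kinases and, through type I interferon, a further set of antiviral genes. IL-10 binds a receptor of 2 chains whose kinases, JAK1 and TYK2, activate STAT3, and STAT3 in turn raises genes such as Socs3, Bcl3 and Nfil3 while many LPS-induced genes are repressed. H3K27ac is laid down at active promoters and enhancers by the acetyltransferases p300 and CBP. The comparison asks which marked regions had already moved 30 min after IL-10 reached cells that were in the middle of an LPS response.

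The values are the deposited signal, a whole number of reads multiplied by 1 factor per library, and the value of a gene is the sum over the regions assigned to it. Reads in regions came to between 5149730 and 20884182 in the LPS libraries and between 6635223 and 11083204 in the late IL-10 libraries. No value lay below 1 read, and because very wide regions also sat at exactly 1 read, reads had probably been taken off before deposit, which the sources used here do not state. A fold against this floor therefore describes the deposited values and not the absence of the mark. Correlations of log2 values between replicates were 0.916 for LPS replicates 1 and 2 but 0.721 and 0.742 for LPS replicate 3 against them. Late IL-10 replicate 3 stood apart in the same way, at 0.793 and 0.791 against 0.894 for the other pair. In both groups replicate 3 was also the library with the most reads in regions and the lowest floor, 0.464 with LPS and 0.886 with late IL-10. Within a pool, the LPS and late IL-10 libraries deviated together, with correlations of their deviations between 0.442 and 0.712. Across pools 1 and 2 these correlations were also positive, at 0.232 and 0.219. All 30 macrophage identity genes were tested, with a summed signal between 100217 and 160261 in the LPS libraries and between 105307 and 164828 in the late IL-10 libraries. The 8 T and NK cell genes tested summed to between 1247 and 1413 with LPS and to between 1384 and 1745 with late IL-10, and Cd3g, Cd8a and Trac had no region.

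Promoter sequences were read for the named genes, because STAT3 is the transcription factor through which the IL-10 receptor acts. Of the 76 named genes, 59 had a promoter in the RefSeq table of GRCm38.p6, the build that matches mm10, and 50 had it inside a tested region. Below are the 250 bases before the annotated start of 3 genes whose start region was called higher with late IL-10, 5′ to 3′ on the strand of the gene. Capitals mark a match to the STAT motif, TTCNNNGAA, in Socs3 and Steap4, and to the NF-kB motif in Ier3. The Steap4 promoter, searched from 250 bases before to 50 after the start, also holds 2 matches to the NF-kB motif, which are not capitalised, so Steap4 has both motifs. Both strands were searched, and the motifs overlapped in none of these 3 windows and in 36 of all 32851. The 3 windows do not represent all named genes. The Lta promoter held 2 STAT matches in a region called lower, and that of Zfp36 held 1 in a region not called. Promoters of Nfil3, Etv3, Bcl3, Il4ra, Il1rn and Mrc1, in regions called higher, held no STAT match. The Socs3 window is at chr11:117969367-117969616 on the minus strand, with the match beginning at position -154 from the start. The Steap4 window is at chr5:7960222-7960471 on the plus strand, with the match at position -116. The Ier3 window is at chr17:35821463-35821712 on the plus strand, with the match at position -92.
Socs3: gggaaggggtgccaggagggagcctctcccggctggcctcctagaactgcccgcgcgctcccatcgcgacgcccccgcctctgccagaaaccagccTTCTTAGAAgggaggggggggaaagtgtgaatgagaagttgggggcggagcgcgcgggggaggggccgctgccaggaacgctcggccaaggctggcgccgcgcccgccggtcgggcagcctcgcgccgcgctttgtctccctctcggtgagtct
Steap4: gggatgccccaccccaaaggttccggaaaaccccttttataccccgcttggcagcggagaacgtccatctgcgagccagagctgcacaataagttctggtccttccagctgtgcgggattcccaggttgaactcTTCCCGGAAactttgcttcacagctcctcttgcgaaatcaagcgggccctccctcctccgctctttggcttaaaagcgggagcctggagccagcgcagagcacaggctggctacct
Ier3: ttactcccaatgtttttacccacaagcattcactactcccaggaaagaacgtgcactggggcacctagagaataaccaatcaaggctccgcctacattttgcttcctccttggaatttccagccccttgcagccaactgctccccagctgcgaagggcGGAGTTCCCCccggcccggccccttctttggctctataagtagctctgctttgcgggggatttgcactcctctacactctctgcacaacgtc

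The STAT motif occurred in 8.30% of all 32851 promoters, each counted over 250 bases before and 50 after the start, and in 7.07% of the 14052 that lay in a tested region. It was in 72 of the 754 promoters in regions called higher with late IL-10 (9.55%), in 13 of the 307 in regions called lower (4.23%) and in 7.0% of those in regions not called. For the NF-kB motif the shares were 10.1% in regions called higher, 10.7% in regions called lower and 8.99% in regions not called. These are counts of letters and were not tested, and a window without a match says nothing about a factor.

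After 30 min of IL-10, 2258 regions were higher than with LPS alone, 6.17% of those tested, and 704 were lower, 1.92%, at an adjusted p under 0.05 in limma. The median log2 difference was 3.01 among the higher regions and -2.58 among the lower ones. Counting each floor value at its bound gave 2.90 and -2.36. The 3 libraries of each group did not overlap in 1957 of the higher and 528 of the lower regions. Of all tested regions, 8.18% had every late library above every LPS library and 6.04% had every late library below. In 495 of the higher regions all LPS libraries lay at the floor, counted here as 3 reads or fewer, 21.9% of them against 7.83% of all tested. Fewer cells carrying the mark and less of the mark in each cell cannot be told apart in such pooled chromatin. Of the higher regions, 36.0% lay between genes, 48.3% within a gene away from its start and 15.7% at a start site, defined as within 1 kb of an annotated start. Regions at start sites were called higher least often, in 3.98% of those tested, against 7.28% between genes and 6.60% within genes. For lower calls the shares were 1.59%, 2.53% and 1.69%. Wide regions were called most often, and of those at least 6554 bp wide 13.1% were higher and 4.27% lower. The number of calls depended on the pairing and on single libraries. Without the pool as a block it was 1149 higher and 145 lower. Leaving out any 1 of the 6 LPS and late IL-10 libraries gave between 1363 and 1758 higher and between 203 and 649 lower. Without all replicate 3 libraries it was 1467 and 415. On the recovered reads edgeR called 2048 higher and 635 lower, of which 1957 and 535 were called by limma too. The plot of region level against difference shows both sets.

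**Figure D1:**
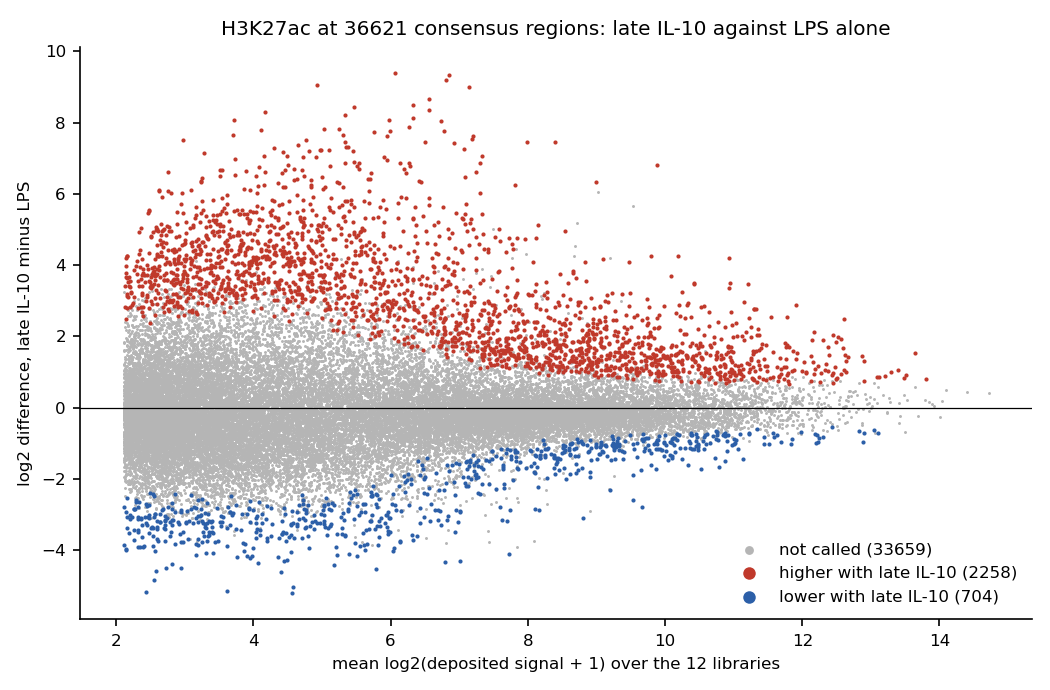
Each point is 1 of the 36621 regions tested, with its mean log2(deposited signal + 1) over 12 libraries on the horizontal axis and the log2 difference, late IL-10 minus LPS, on the vertical axis. The 2258 regions called higher (red) outnumber the 704 called lower (blue) and reach larger differences.

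Among the regions named by the rule, the log2(signal + 1) difference was largest within Zfp618, the gene of a zinc finger protein, though the LPS libraries lay at the floor and the bounds on the fold do not rank these regions. The region at chr4:63042912-63064022 (mm10, within the gene) was at 1.97, 1.68 and 0.464 in LPS replicates 1 to 3, the floor of 1 read in each. With late IL-10 it reached 1648, 1484 and 1449, at least 371-fold higher in the deposited values (log2 difference 9.39, SE 0.52, adjusted p = 1.49e-07). The rule names only regions where the late and LPS libraries do not overlap. The untreated libraries, at 0.707, 1.26 and 2.09, were as low as those with LPS. With continuous IL-10 the region was at 3480.2, 2172 and 2052. Of the 10 regions of Zfp618 tested, 6 were called higher and none lower. They include a region shared with Ambp and Kif12 at chr4:63134179-63163574, which was at 689, 442 and 828 with LPS and 5304, 4062 and 4589.8 with late IL-10. Summed over the gene, the values were 710.3, 460.4 and 863 with LPS and 9004, 7004 and 8861 with late IL-10, a log2 difference of 3.65 (SE 0.32, adjusted p = 6.22e-06).

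The other regions with the largest increases were at the floor in all 3 LPS libraries too. A region at chr5:32100446-32114909, assigned to Babam2, a subunit gene of the BRCA1-A and BRISC complexes, 15496 bp away, reached 1972, 2137 and 736 and was at least 393-fold higher. It lies beside the start region of Fosl2, which begins at 32116374. The region at chr16:43960685-43972469, within Ccdc191 and near Zdhhc23, a palmitoyltransferase gene, reached 1389, 1890.2 and 875, at least 337-fold, and a neighbour within Ccdc191 at chr16:43946118-43959452 reached 991, 1069.6 and 519.9, at least 209-fold. In Srgap3, which encodes a GTPase-activating protein for Rac, the region at chr6:112748844-112772389 reached 1483, 1664 and 694, at least 311-fold. The start region of Cd244a, which encodes a receptor of the SLAM family, at chr1:171553398-171563812, reached 1286, 1188 and 1052, at least 286-fold. The last 2 of these 8 lay between genes, as did the Babam2 region. The one at chr16:78260717-78269653, 31573 bp from Cxadr, reached 1069, 1290.0 and 579, at least 238-fold, and the one at chr12:35412708-35422402, 75577 bp from the aryl hydrocarbon receptor gene Ahr, reached 1073, 1174 and 391, at least 214-fold. Their adjusted p values lay between 4.36e-08 and 1.7e-05, and without the block between 9.42e-07 and 0.000592. Several had signal in untreated cells, such as Cd244a at 712, 417 and 517 and the Babam2 region at 302, 212 and 263. In the late IL-10 group replicate 3 was the lowest library in all 8.

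The largest decreases were in weaker regions. A region within Baiap2, the gene of an adaptor of the actin cytoskeleton, at chr11:119986101-119992825, was at 100.3, 38.7 and 179 with LPS and at the floor of 1.76, 1.79 and 0.886 with late IL-10, at least 23.9-fold lower (adjusted p = 0.00363, and 0.0942 without all replicate 3 libraries). The region 7614 bp from Gpr25, an orphan receptor gene, at chr1:136244936-136251300, was at 116, 97.5 and 56.6 and then at the floor, at least 20.3-fold lower (adjusted p = 0.000165). It was at the floor in untreated and in continuous IL-10 libraries as well. Beside Gramd1b, a sterol transporter gene, the region at chr9:40534934-40539832 fell from 92.5, 155 and 52.4 to 1.76, 5.38 and 0.886, with a log2 difference of -4.84. A region within Cd2, an adhesion receptor gene of lymphocytes, at chr3:101286507-101298431, fell from 84.6, 35.3 and 55.6 to the floor, at least 13.2-fold. In untreated cells that Cd2 region stood higher, at 441, 528 and 847. The other 4 regions had no gene within 100 kb: those at chr14:76686320-76691413 and chr5:99423394-99428985 were at the floor with late IL-10 and at least 19.9-fold and 15.1-fold lower. Those at chr10:17342812-17349905 and chr3:50072670-50076984 had log2 differences of -5.03 and -4.60, and the last was not called without the block (adjusted p = 0.0744).

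Summed over genes, 907 of 13480 genes were higher with late IL-10 (6.73%) and 406 were lower (3.01%). Without the block the counts were 430 and 35, and in edgeR they were 934 and 263. The fit of the 6 LPS and late IL-10 libraries alone gave 1437 and 1151. With each library centred on its median they were 1027 and 228, which moved the higher share of the calls from 69.1% to 81.8%. Centring also moved the median difference of all genes from -0.16 to -0.05, a shift of 0.113. The differences below should be read against that median of -0.16, since decreases of a small size depend on the scaling.

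Many genes known to respond to IL-10 through STAT3 were higher after 30 min. Of the 25 on this list, all tested, 12 rose and 1 fell, beside 6.73% and 3.01% of all genes. The median log2 difference was 0.74, against -0.16 over all genes tested. The list was chosen with earlier results of these data known. Without the block 8 were higher and none was lower, in the fit of the 6 libraries alone 16 were higher and 2 lower, and with any 1 library left out between 9 and 12 were higher. Nfil3, which encodes a leucine zipper repressor that limits Il12b, was at 720.1, 983 and 759.6 with LPS and at 3789.9, 4379 and 3552 with late IL-10. The groups were well apart, with log2 differences of 2.39, 2.15 and 2.22 in pools 1 to 3 and 2.26 in the fit (SE 0.23, adjusted p = 1.24e-05). All 4 of its tested regions were called higher. They were the start region at chr13:52972014-52989821 (665, 976 and 755 to 3112, 3759 and 3181), the flanking region at chr13:52960410-52965104, where the LPS libraries were at the floor, and regions 34536 and 37798 bp away. Etv3, the gene of a repressor of the ETS family, rose from 2932, 3554 and 2602 to 11287, 15263 and 8427 in its single region at chr3:87503324-87531914, by a log2 difference of 1.91 (SE 0.19, adjusted p = 7.69e-06).

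Bcl3, which encodes a nuclear IkB protein, was at 1539, 1633 and 2628 with LPS and at 6833, 6912 and 6828 with late IL-10. The late libraries lay within a narrow range above all LPS libraries, and the log2 difference was 1.87 (SE 0.19, adjusted p = 1.24e-05). Il1rn, the gene of the IL-1 receptor antagonist, whose region also holds Il1f10, was at 7638, 8069.6 and 2049 and 19617, 25833 and 8721, with the lowest values of both groups in replicate 3. It rose by 1.71 (SE 0.25, adjusted p = 0.000345), a call that ended without the block (adjusted p = 0.153). Socs3, the feedback inhibitor of JAK kinases whose promoter is printed above, was at 14682, 18663 and 17100.4 with LPS and at 29279.8, 28807 and 29545 with late IL-10. The groups did not overlap, but its difference of 0.80 (SE 0.19, adjusted p = 0.0127) was among the smaller ones, and LPS alone already stood above the untreated values of 2579, 2812 and 4669. The Socs3 call ended without the block (adjusted p = 0.0595) and without LPS replicate 1 (0.0807), late IL-10 replicate 1 (0.105) or late IL-10 replicate 2 (0.0619). The region also covers part of Pgs1.

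Il4ra, also on this list, is described with the receptors. The other 6 higher members were named after their values were seen. Ptpn1, a tyrosine phosphatase gene, rose by 1.44, Arg1, the arginase gene, by 1.40, and Sbno2, a corepressor gene, by 1.22. Il21r, the IL-21 receptor gene, rose by 1.13 in a region that it shares with Il4ra. Il10 itself rose by 1.27 (adjusted p = 0.00427) from 1769, 1912 and 758 to 5051, 4357 and 1648, although the gene is disrupted in these cells. Bcl6, a repressor gene, rose by 0.91. The Il10 call ended without late IL-10 replicate 1 (adjusted p = 0.0502) and without the block (0.199), and that of Bcl6 without LPS replicate 1 (0.059), LPS replicate 3 (0.153), late IL-10 replicate 1 (0.157) or late IL-10 replicate 2 (0.132), without the block (0.12) and in edgeR (0.0512). Maf, the gene of a transcription factor that drives Il10, fell from 5008, 6671 and 3496 to 2541, 3662 and 2159, by a log2 difference of -0.85 (SE 0.17, adjusted p = 0.00459). This call ended without the block (adjusted p = 0.143), and its regions did not all go 1 way. Of 8 tested, the 3 between 44766 and 99683 bp from the gene fell, with log2 differences of -1.88, -1.48 and -1.80. On the other side, regions 34945 and 57289 bp from the gene rose by 1.71 and 4.17.

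**Figure D2:**
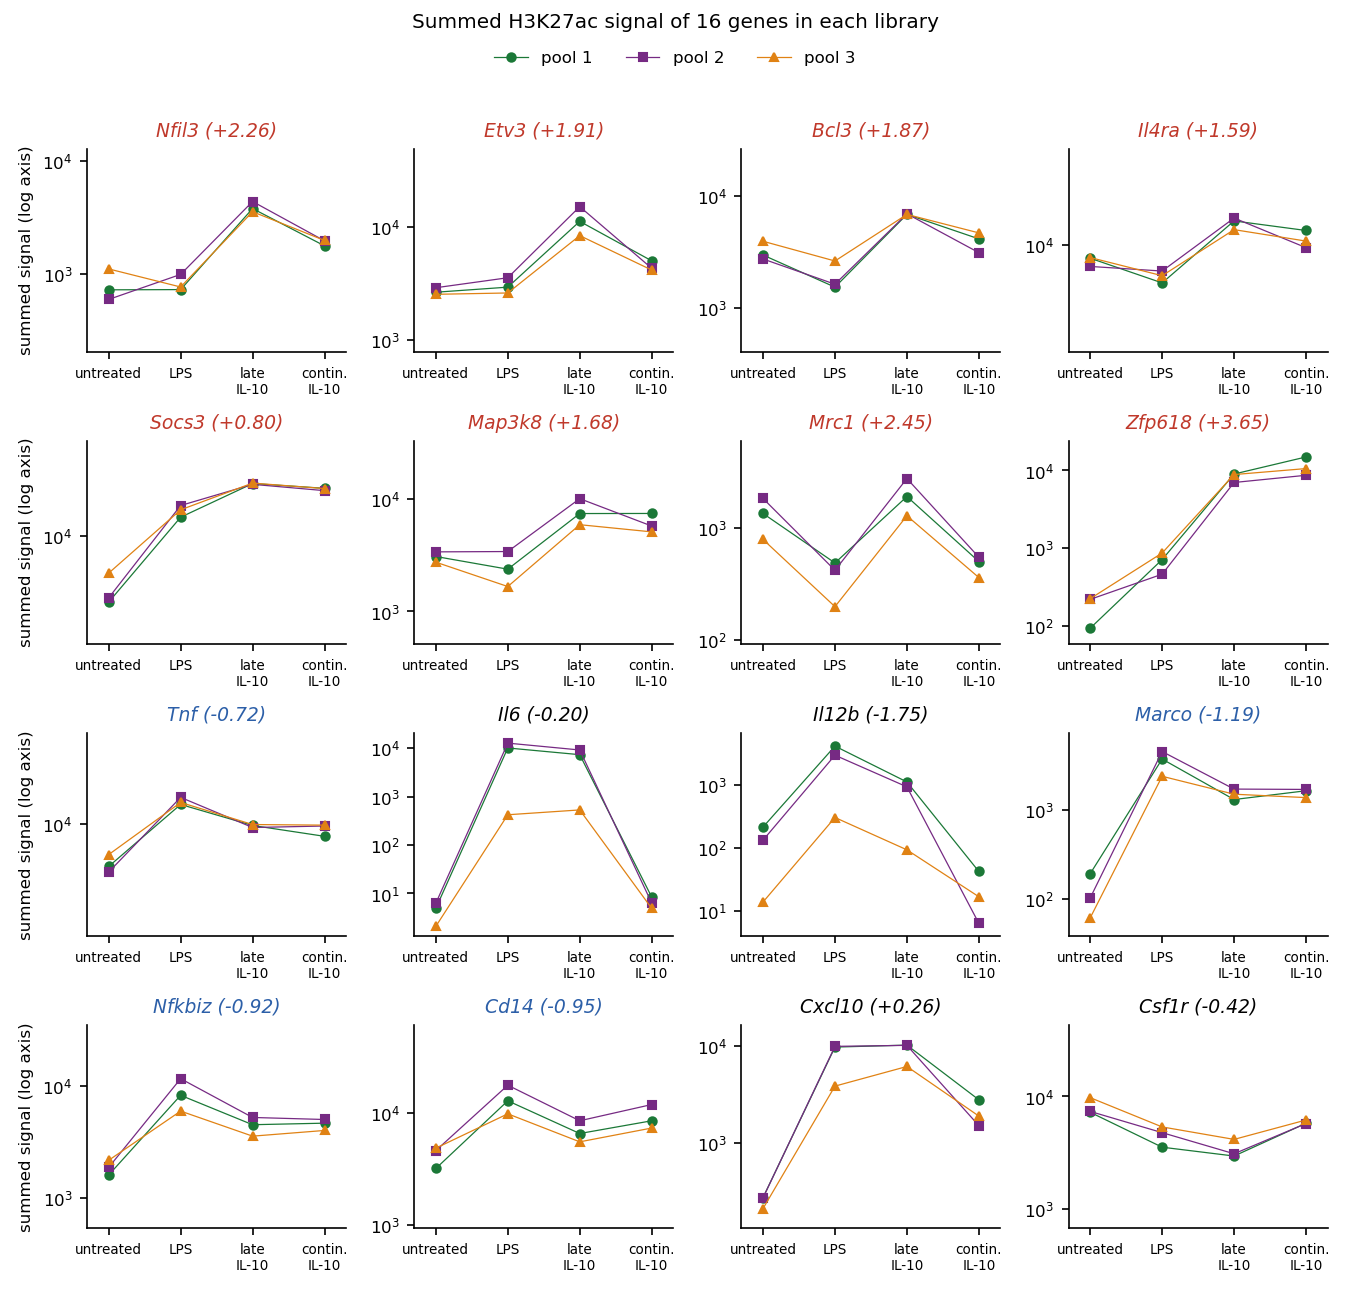
Summed H3K27ac signal (log axis) of 16 genes in each library of the 4 groups, with 1 line per macrophage pool. The number is the log2 difference between late IL-10 and LPS, in red or blue where called. Nfil3, Etv3, Bcl3, Il4ra, Map3k8, Mrc1 and Zfp618 rise from LPS to late IL-10 in each pool, and Il6 and Cxcl10 are not called.

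Among the genes of the IL-10 receptor and of JAK-STAT signalling, 4 of 21 tested rose and 1 fell, beside 6.73% and 3.01% of all genes. The median log2 difference was 0.23. Socs3, described above, is 1 of the 4. Il10ra and Il10rb, the receptor chains, were not called, with differences of -0.07 and -0.15 (adjusted p = 0.878 and 0.758). Il4ra, the gene of the IL-4 receptor alpha chain, was at 4579, 5838 and 5305 with LPS and at 16306, 17297 and 13637 with late IL-10, with no overlap and a log2 difference of 1.59 (SE 0.19, adjusted p = 3.73e-05). Its start region at chr7:125534212-125566805 rose from 931, 1230.1 and 1163 to 7192, 7674 and 4949, a difference of 2.56. The region at chr7:125578815-125640939, shared with Il21r, rose by 1.13, and a flanking region at chr7:125521170-125529624, 22647 bp from the gene, rose from 1.97, 1.68 and 0.464 to 157, 93.2 and 92.1. Jak1, the kinase of the receptor's ligand-binding chain, rose from 1354, 1785 and 1548 to 4499.6, 5782 and 3261, by 1.5 on the log2 scale (SE 0.21, adjusted p = 0.000154). Of its 16 regions tested, 7 rose and none fell, while its start region at chr4:101260661-101266415 was not called, at 181, 277 and 628 and 477, 475 and 494 (adjusted p = 0.343). The strongest of the 7, at chr4:101288113-101302670, lies 22831 bp from the gene and rose from 596, 765 and 779 to 2356, 3006 and 1805.

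Stat5b, which encodes a STAT of the growth factor receptors, rose by 0.99 (SE 0.21, adjusted p = 0.00612), from 1606, 1722 and 1934 to 3584, 3479 and 3396, a call that ended without late IL-10 replicate 1 (0.0639). Stat3 itself, at 1328, 1128 and 917 and 1881, 1634 and 1284, had a difference of 0.51 (adjusted p = 0.228). Tyk2, the second receptor kinase, fell from 3064, 3595 and 2453 to 1994, 1804 and 1595, a log2 difference of -0.74 (SE 0.22, adjusted p = 0.0391). The groups did not overlap, but this call ended without the block (adjusted p = 0.137), with centring (0.129), in edgeR (0.103), in DESeq2 (0.0707), and without LPS replicate 1 (0.183), LPS replicate 2 (0.23), late IL-10 replicate 1 (0.0623), late IL-10 replicate 2 (0.19) or late IL-10 replicate 3 (0.144).

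The list of NF-kB subunits, inhibitors and Toll-like receptor feedback genes held calls in both directions. Of 23 genes tested, 6 rose and 2 fell, beside 6.73% and 3.01% of all genes, and the median was -0.08. Besides Bcl3, the largest increase was at Map3k8, the gene of the kinase that links NF-kB signalling to ERK. It was at 2379, 3415 and 1667 with LPS and 7439, 10093 and 5919 with late IL-10, and every pool rose, by 1.64, 1.56 and 1.83. The difference was 1.68 (SE 0.20, adjusted p = 4.65e-05), and 4 of its 8 regions tested were called higher, 3 of them between genes. Dusp1, the gene of a phosphatase that inactivates p38 and JNK, rose from 2794, 3399.6 and 3129.7 to 9149, 10920.4 and 5955, by 1.44 (SE 0.25, adjusted p = 0.00148). These 3 calls held without the block and with any library left out. Nfkbia, which encodes IkBα, rose from 7789.7, 10468 and 7193 to 15526, 18970.4 and 11723, by 0.85 (SE 0.23, adjusted p = 0.0251), with no overlap. Its call ended without the block (adjusted p = 0.0971) and without LPS replicate 1 (0.137), LPS replicate 3 (0.0862), late IL-10 replicate 1 (0.12) or late IL-10 replicate 2 (0.159).

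Another 2 genes of the list rose within each pool, while the groups overlapped. Tnfaip3 was named after its values were seen. Tnip3, an A20-binding protein gene, was at 3132, 5273 and 1208 with LPS and 6254, 10082 and 3284 with late IL-10, and Tnfaip3, the A20 gene, was at 24539.9, 32576 and 6726 and 39152, 54707 and 15195. Replicate 3 was the lowest library of both groups for both genes. Their differences were 1.12 (adjusted p = 0.0134) and 0.87 (adjusted p = 0.0452). Without the block neither was called (adjusted p = 0.373 and 0.705). Tnip3 was also lost without LPS replicate 3 (0.0748), late IL-10 replicate 1 (0.0639) or late IL-10 replicate 2 (0.0845). Tnfaip3 was lost without LPS replicate 1 (0.128), LPS replicate 3 (0.211), late IL-10 replicate 1 (0.122), late IL-10 replicate 2 (0.233) or late IL-10 replicate 3 (0.0738), with centring (0.0546), in edgeR (0.0804) and without all replicate 3 libraries (0.0627).

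Nfkbiz, the gene of IkBζ, a cofactor that Il6 and Il12b need, fell. It was at 8266, 11624 and 5982 with LPS and at 4524, 5249.7 and 3579 with late IL-10, without overlap, and the log2 difference was -0.92 (SE 0.21, adjusted p = 0.0101). The fall lay in 2 flanking regions, at chr16:55773512-55809879 (2115, 3206 and 1311 to 576, 1037 and 514, difference -1.62, adjusted p = 0.000822) and at chr16:55742244-55769507 (difference -1.19, adjusted p = 0.0132). The region within the gene at chr16:55816099-55824657 was not called, with a difference of -0.32. Summed over the gene, the call ended without the block (adjusted p = 0.0776) and without LPS replicate 1 (0.0558) or LPS replicate 2 (0.087). Irak2, an adaptor kinase gene of the receptor, fell from 13175, 16408 and 13679 to 8789.6, 8619.8 and 8932, a log2 difference of -0.71 (SE 0.20, adjusted p = 0.0343). Its groups did not overlap either. It was not called without the block (adjusted p = 0.137), with centring (0.089), in edgeR (0.0641) or without LPS replicate 1 (0.131), LPS replicate 2 (0.192), late IL-10 replicate 1 (0.0821), late IL-10 replicate 2 (0.12) or late IL-10 replicate 3 (0.148). Zfp36, the gene of the mRNA-destabilising protein tristetraprolin, was at 4091, 5125 and 5336 and 6623, 6334 and 6685 and did not pass the test (adjusted p = 0.168).

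Of the 22 immediate early genes, 3 rose and none fell, beside 6.73% and 3.01% of all genes. The median was 0.06, and before adjustment 4 of the 22 were higher and 2 lower at p under 0.05. Ier3, an inhibitor of cell death induced by NF-kB whose promoter is printed above, rose from 2249, 2658 and 1780.2 to 7418, 7133 and 5598, by 1.6 on the log2 scale (SE 0.20, adjusted p = 7.32e-05). Both of its regions were called, the intergenic one at chr17:35769964-35790824 with the larger difference, 2.47. Fosl2, an AP-1 subunit gene, rose from 3980.5, 4134 and 4532 to 13289, 11633 and 10009.6, by 1.46 (SE 0.22, adjusted p = 0.000337), and 3 of its 4 regions were called. Dusp1, given above, was the third. Fos and Egr1 were not called, with values of 3579, 5092 and 6072 and 3924, 4485 and 4708 for Fos (difference -0.14) and of 246, 159.6 and 343 and 149.7, 1.79 and 115 for Egr1 (difference -2.71, adjusted p = 0.121).

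The number of inflammatory cytokine and chemokine genes called after 30 min depended on the libraries used. In the fit of all 12 libraries none of 29 tested rose and 3 fell, beside 6.73% and 3.01% of all genes. The median of the list was -0.24. The fit of the 6 LPS and late IL-10 libraries alone called 5 higher and 14 lower, and without all replicate 3 libraries 1 was higher and 5 were lower. Before adjustment, 2 were higher and 8 lower at p under 0.05, edgeR and DESeq2 each called 3 lower and none higher, and no member was called without the block. The 3 were Tnf and Lta, the genes of tumour necrosis factor and lymphotoxin alpha, which share 1 region and count as 1 observation, and Lif. The shared region at chr17:35184377-35237216 was at 14928, 17258 and 15555 with LPS and at 9709, 9309.6 and 9894 with late IL-10. It extends beyond the annotated starts of both genes, so signal outside Tnf and Lta is counted too. Every late library was below every LPS library, with log2 differences of -0.62, -0.89 and -0.65 in pools 1 to 3 and -0.72 in the fit (SE 0.17, adjusted p = 0.0137), and all were above the untreated values of 4191, 3736 and 5344. On gene sums the call ended without the block (adjusted p = 0.0511) and without LPS replicate 1 (0.07), LPS replicate 2 (0.0841), late IL-10 replicate 2 (0.0789) or late IL-10 replicate 3 (0.0631). As a single region it stood without the block as well (adjusted p = 0.0379). Lif, the gene of leukaemia inhibitory factor, fell from 1425, 976 and 1197 to 423, 267 and 347, a log2 difference of -1.80 (SE 0.47, adjusted p = 0.0244). Its call ended without the block (0.171) and without LPS replicate 1 (0.104), LPS replicate 2 (0.14), late IL-10 replicate 1 (0.105), late IL-10 replicate 2 (0.0582) or late IL-10 replicate 3 (0.104). The decrease was called in the region 19008 bp from the gene at chr11:4291522-4314818, while a region 5095 bp away on the other side left the floor, to 114, 55.5 and 61.1.

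At Il6 no change was detectable with this spread. The summed signal was 10200.0, 12851 and 424 with LPS and 7412, 9268 and 534 with late IL-10, so replicate 3 was more than 10-fold below the other libraries in both groups. The difference was -0.20, with a 95% interval of -1.92 to 1.52 (adjusted p = 0.933), and without all replicate 3 libraries it was -0.47 (adjusted p = 0.458). With continuous IL-10 the same regions summed to 8.43, 6.35 and 4.93, at or near the floor of 1 read per region. Il12b, the gene of the p40 chain of IL-12, was lower in each pool, with log2 differences of -1.89, -1.67 and -1.69, from 4106, 2946 and 303 to 1109, 928 and 93.0. Replicate 3 again stood apart and the groups overlapped, and the difference of -1.75 did not pass the test (interval -3.34 to -0.15, adjusted p = 0.187). Without all replicate 3 libraries its adjusted p was 0.0545. Il1b, at 11280.3, 15514 and 2824 and 10466, 14676 and 4627, had a difference of 0.17 (adjusted p = 0.867). For the chemokine genes Cxcl9, Cxcl10 and Ccl5 the differences were -0.19, 0.26 and 0.13, with intervals of -1.02 to 0.64, -0.29 to 0.80 and -0.41 to 0.68. Cxcl10, for example, was at 9791, 9962 and 3863 with LPS and 10264, 10202 and 6167 with late IL-10.

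Among 28 inflammatory effector genes, 2 rose and 1 fell, with a median of -0.03. These shares are near those of all genes, 6.73% and 3.01%. The fit of the 6 libraries alone called 5 higher and 5 lower, DESeq2 called 4 and 2, and none was called without the block. Marco, a scavenger receptor gene that LPS induces, fell from 3679, 4465 and 2363 to 1299.7, 1700.3 and 1491, a log2 difference of -1.19 (SE 0.29, adjusted p = 0.0146). The late libraries were all below the LPS libraries. Its start region at chr1:120496607-120539489 and a region at chr1:120544256-120550226 were called, the second going from 120.0, 148 and 105 to 1.76, 14.3 and 7.09, a difference of -4.15. The gene call ended without the block (adjusted p = 0.13), with centring (0.0678), in edgeR (0.0734), and without LPS replicate 1 (0.0523), LPS replicate 2 (0.109), late IL-10 replicate 1 (0.137) or late IL-10 replicate 2 (0.0584). Casp4, the gene of the caspase that senses cytosolic LPS, rose by 1.32 (adjusted p = 0.0241), and Edn1, the endothelin gene, by 1.07 (adjusted p = 0.0277). Both overlapped between groups, as Edn1 shows with 7207, 7428 and 1964 and 13633, 15069.9 and 4756. Neither was called without the block (0.539 and 0.647), with centring (0.0605 and 0.059), or without all replicate 3 libraries (0.0643 and 0.184). Casp4 was also lost in edgeR (0.105) and without LPS replicate 2 (0.0551), LPS replicate 3 (0.123), late IL-10 replicate 1 (0.0942), late IL-10 replicate 2 (0.0737) or late IL-10 replicate 3 (0.0925), and Edn1 without LPS replicate 2 (0.115), LPS replicate 3 (0.123), late IL-10 replicate 1 (0.148), late IL-10 replicate 2 (0.0789) or late IL-10 replicate 3 (0.071).

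Nos2, the gene of inducible nitric oxide synthase, was at 1301, 1002 and 534 and 2672, 2599.7 and 843 and missed the threshold as a sum (difference 1.02, interval 0.29 to 1.76, adjusted p = 0.0823). Within the gene, however, the region at chr11:78945275-78956828 was at 3.94, 1.68 and 0.464 with LPS and at 655, 770.4 and 234 with late IL-10, a difference of 7.52 (adjusted p = 1.32e-05, 0.000219 without the block). The stronger region at chr11:78908569-78925514 was not called, at 1102, 955 and 526 and 1722, 1621 and 568. Ptgs2, the cyclooxygenase-2 gene, had a difference of 0.71 (interval -0.64 to 2.06) and Cd40, a co-stimulatory receptor gene, one of -0.04 (interval -0.50 to 0.41).

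In the fit of all 12 libraries 6.73% of all genes were called higher and 3.01% lower. No gene of the interferon response was called in either direction among the 28 tested in that fit, and the median was -0.02. The fit of the 6 libraries alone called 2 higher and 3 lower, and without all replicate 3 libraries 1 went each way. Before adjustment, 1 was higher and 2 were lower at p under 0.05, and edgeR and DESeq2 each called 1 higher and none lower. Ifit1, which encodes an RNA-binding antiviral protein, was at 1969.6, 2341 and 1009 and 2359.9, 2627 and 1265, a difference of 0.25 (interval -0.36 to 0.86). Irf7, the gene of the factor that amplifies interferon production, was at 1753, 1551 and 1518 and 2023, 1652 and 976, a difference of -0.11 (interval -0.65 to 0.43). For Stat2 the difference was -0.03 and for Rsad2, the viperin gene, -0.41 (adjusted p = 0.975 and 0.339). Ifnb1, the interferon beta gene at the head of this response, was lower in each pool, with log2 differences of -1.24, -0.91 and -0.61, from 1027, 1039 and 546 to 435, 554 and 357. The groups overlapped and its difference of -0.92 missed the threshold (adjusted p = 0.0653).

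**Figure D3:**
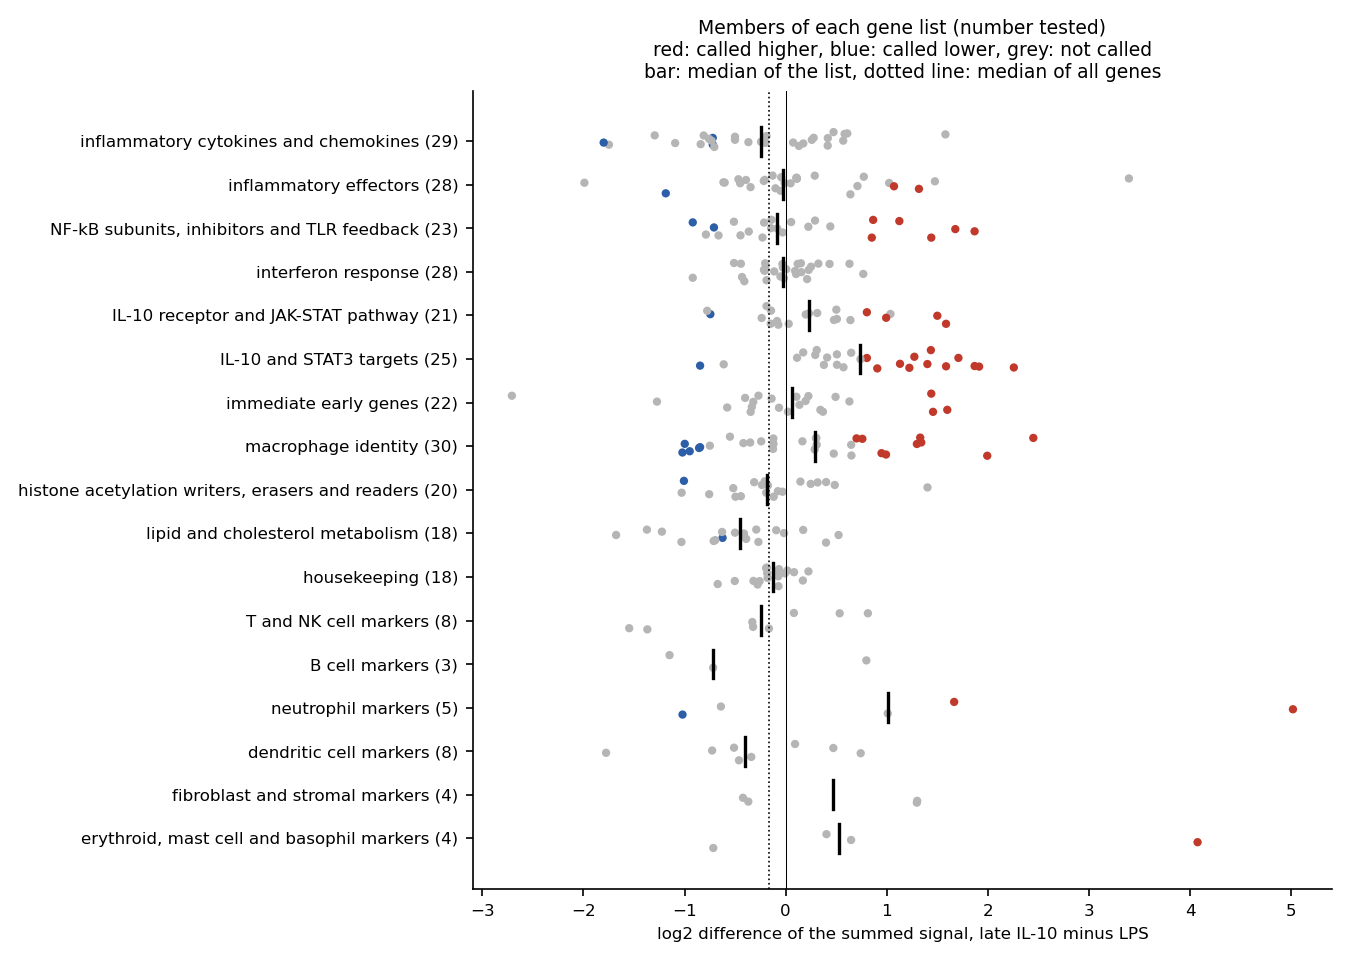
Each point is 1 gene of a list, placed by its log2 difference of summed signal (late IL-10 minus LPS), with the number of genes tested after the name of the list. The IL-10 and STAT3 targets have 12 members called higher (red) and a median of 0.74 (bar), the interferon list has none called, and the dotted line marks the median of all genes, -0.16.

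Genes of macrophage identity moved in both directions. Of the 30 tested, 9 rose and 5 fell, beside 6.73% and 3.01% of all genes, with a median of 0.29. Without the block the counts were 3 and 0, and with any 1 library left out between 3 and 7 rose and between 3 and 5 fell. Mrc1, the mannose receptor gene, was at 488, 420.1 and 199 with LPS and at 1904, 2752 and 1283 with late IL-10. The untreated libraries, at 1345, 1830.4 and 790.1, lay nearer to late IL-10 than to LPS, and the difference was 2.45 (SE 0.23, adjusted p = 6.22e-06). Of its 6 regions tested, 5 were called higher, among them the start region at chr2:14227738-14253591 (413, 343 and 197 to 1338, 1951 and 958) and 2 within the gene where the LPS libraries were at the floor. Fcgr3, a low-affinity IgG receptor gene, rose from 739.8, 1109 and 467 to 3089, 3660.4 and 2151, by 1.99 (SE 0.26, adjusted p = 8.43e-05). Pparg, the gene of a lipid-sensing nuclear receptor, rose from 866, 958 and 854 to 2425, 2390.1 and 1992, by 1.34 (SE 0.24, adjusted p = 0.00134), still under the untreated values of 4506, 5061 and 3361. These 3 calls held without the block and with any library left out. Another 5 that rose, Fcgr2b, Msr1, Tfec, Mpeg1 and Ctsb, named after their values were seen, had differences between 0.70 and 1.30, and none of them was called without the block (adjusted p between 0.0871 and 0.697) or in every leave-out.

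In the other direction, Cd14, the LPS co-receptor gene, fell from 12805, 17629.8 and 9806 to 6549, 8505 and 5522, a log2 difference of -0.95 (SE 0.20, adjusted p = 0.00538). All late libraries lay under all LPS libraries, in a region that also covers Tmco6, and the call ended only without the block (adjusted p = 0.0883). Cd36, a scavenger receptor gene for oxidised lipids, fell from 3750.2, 6626 and 1619.8 to 1687, 2575 and 1108, a log2 difference of -1.02 (SE 0.20, adjusted p = 0.00364). Its groups overlapped, and without the block the adjusted p was 0.524. Lyz2, the lysozyme gene, and Adgre1, which encodes the F4/80 antigen, fell with differences of -1.0 (adjusted p = 0.0192) and -0.86 (adjusted p = 0.0103). Maf, described above, was the other gene that fell. Neither was called without the block (0.228 and 0.13). Lyz2 was also lost without LPS replicate 1 (0.0608), LPS replicate 2 (0.106), late IL-10 replicate 1 (0.111) or late IL-10 replicate 3 (0.102), and Adgre1 with centring (0.059) and without LPS replicate 1 (0.0819), LPS replicate 2 (0.0829), late IL-10 replicate 1 (0.0597) or late IL-10 replicate 2 (0.0539). Csf1r, the M-CSF receptor gene, was at 3538, 4766 and 5359 and 2952, 3092 and 4151, lower in each pool but not called (difference -0.42, adjusted p = 0.168), and Spi1, the PU.1 gene, had a difference of -0.12 (interval -0.54 to 0.30).

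The housekeeping genes, used as a reference group, stayed near the median of all genes. None of the 18 housekeeping genes was called by limma on all 12 libraries, by edgeR or by DESeq2, and 1 was lower in the fit of the 6 libraries alone, with a median of -0.13 and 2 lower and none higher at an unadjusted p under 0.05. Among the 20 genes of histone acetylation none rose and 1 fell, beside 6.73% and 3.01% of all genes. No member was called without the block or in edgeR, and the fit of the 6 libraries alone called 2 higher and 3 lower. Ep300 and Crebbp, the acetyltransferases of this mark, had differences of -0.21 and -0.52 (adjusted p = 0.639 and 0.521). Of 18 genes of lipid and cholesterol metabolism none rose and 1 fell, beside the same shares of all genes. It was Nr1h3, the gene of the oxysterol receptor LXRα, which fell from 4537, 7611 and 5377 to 3036, 4501 and 3711, a difference of -0.62 (adjusted p = 0.0351). That list had the lowest median of those with 18 or more genes, -0.46, and at an unadjusted p under 0.05, 5 of its members were lower and none was higher. The call of Nr1h3 ended without the block (0.239), with centring (0.126), in edgeR (0.0774), in DESeq2 (0.0508) and without LPS replicate 1 (0.0969), LPS replicate 2 (0.225), late IL-10 replicate 1 (0.158), late IL-10 replicate 2 (0.107) or late IL-10 replicate 3 (0.11).

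Marker genes of other cells summed to less signal than the macrophage genes, and their part in the results above was not tested. The dendritic cell genes summed to between 10303 and 22753 with LPS and between 8293 and 17668 with late IL-10, the fibroblast genes to between 6096 and 13824 and between 7108 and 16525, and the B cell genes to between 1552 and 2046 and between 2016 and 3067. Cd79b, Pax5, Ebf1, Cd209a, Col3a1 and Pdgfra had no region. Limma on all 12 libraries called 6.73% of all genes higher and 3.01% lower. None of the 8 T and NK cell, 3 B cell, 8 dendritic cell and 4 fibroblast genes tested was called in that fit. The fit of the 6 libraries alone called 1, 1, 1 and 0 of them higher and 0, 0, 2 and 1 lower. Before adjustment, at p under 0.05, 1, 1, 0 and 1 of them were higher and 1, 1, 2 and 1 were lower, and DESeq2 called 1 T and NK cell and 1 B cell gene higher where edgeR called none. Of the 5 neutrophil genes tested, Elane and Mmp8 rose, by 5.02 and 1.67 (adjusted p = 0.00142 and 0.000364), and Ltf fell, with a difference of -1.02 (adjusted p = 0.0181). The region behind Elane, the neutrophil elastase gene, also covers Plppr3, Prtn3 and Cfd, and was at 1.97, 1.68 and 75.1 with LPS, 250.1, 136 and 598 with late IL-10 and 834, 569.8 and 1053 untreated. Mpo, S100a9 and Cxcr2 had no region, and the summed neutrophil signal was between 2353 and 2701 with LPS and between 3013 and 3125 with late IL-10. The call of Ltf ended without the block (0.217), in edgeR (0.0574) and without LPS replicate 1 (0.0986), LPS replicate 2 (0.106), late IL-10 replicate 1 (0.117) or late IL-10 replicate 2 (0.129). Of the 9 erythroid, mast cell and basophil genes 4 were tested, and 1 was higher and none lower. The 5 with a region summed to between 183 and 329 with LPS and between 161 and 282 with late IL-10. The gene called was Cpa3, a mast cell protease gene. It rose from 3.94, 1.68 and 0.464 to 47.5, 50.2 and 36.3 in a region 16783 bp from the gene, with a log2 difference of 4.07. No gene of that list was called with overlapping regions only or with the filter at the 25th percentile.

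Away from the lists, the largest increases of a gene sum were again at genes whose LPS libraries lay at the floor. A region within Accsl, a gene related to aminocyclopropane-carboxylate synthase, reached 989.7, 1114 and 328 with late IL-10, at least 197-fold higher. The untreated libraries were at the floor as well, and continuous IL-10 gave 55.6, 40.6 and 18.7. Aqp12, an aquaporin gene whose region it shares with Kif1a, reached 583, 720.3 and 537 (at least 149-fold), and Acat3, an acetyl-CoA acetyltransferase gene that shares its region with Acat2, 666, 396 and 515 (at least 128-fold). The region 4275 bp from Uncx, a homeobox gene, reached 569, 265 and 308 (at least 92.6-fold), and that 1967 bp from Akap4, 481, 665 and 114 (at least 102-fold). Selp, the gene of P-selectin, an adhesion receptor for leukocytes, had 2 regions at the floor with LPS. They summed to 1166, 1297 and 309 with late IL-10 and to 3.37, 2.54 and 1.97 with continuous IL-10, again the floor. The late minus continuous difference of 7.76 (adjusted p = 8.47e-06) therefore describes the deposited values only.

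Steap4, a metalloreductase gene whose promoter is printed above, rose from 7.87, 15.1 and 1.85 to 1786, 2008 and 314, by 7.13 (SE 0.74, adjusted p = 1.24e-05), and all 4 of its regions were called. With continuous IL-10 it was at 290.0, 94.0 and 8.87, and untreated it was at 2.83, 5.04 and 1.67. Snai1, the gene of the repressor Snail, rose from 7.87, 5.04 and 15.8 to 731, 439 and 534, mostly in a region 23592 bp from the gene at chr2:167566406-167573719. Ptgdr, a prostaglandin D2 receptor gene, rose by 6.06 and Zdhhc23, described above, by 6.10 (adjusted p = 6.22e-06 and 0.00383). All of these calls held without the block and with any library left out. With a pseudocount of 64 in place of 1, chosen after seeing the data, the log2 differences were smaller, 3.59 for Accsl and 3.97 for Steap4.

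Gene sums that fell most were smaller in size and in number. Sh3tc2, which encodes a Schwann cell protein of endosome recycling, fell from 619.8, 1126 and 1229.8 to 19.4, 274 and 314, a log2 difference of -2.98 (adjusted p = 0.0175). All of its 3 tested regions lie between genes. For Gpr25, named above, the difference was -2.59 (adjusted p = 0.00522). Sema4b, a semaphorin gene, fell from 797, 751 and 1142 to 197, 151 and 365, a difference of -1.99 (SE 0.31, adjusted p = 0.000447). Cav2, the caveolin-2 gene, fell from 1080.2, 901 and 676 to 146, 306 and 267, a difference of -1.92 (SE 0.28, adjusted p = 0.000295), and 5 of its 8 regions were called lower. Its start region at chr6:17277177-17287994 went from 317, 326 and 359.9 to 122, 111 and 148. Asb2, a ubiquitin ligase subunit gene, Tpgs2, a tubulin polyglutamylase subunit gene, Sdk2, an adhesion molecule gene, and Gm5294 fell with differences of -1.86, -1.70, -1.69 and -1.66. Calls ended without the block for Sh3tc2 (0.0737), Gpr25 (0.0548) and Gm5294 (0.143). They also ended for Sh3tc2 without LPS replicate 1 (0.109), LPS replicate 2 (0.0562) or LPS replicate 3 (0.0565), for Tpgs2 without LPS replicate 2 (0.0699) and for Gm5294 without LPS replicate 2 (0.0863), LPS replicate 3 (0.0653) or late IL-10 replicate 1 (0.125).

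**Figure D4:**
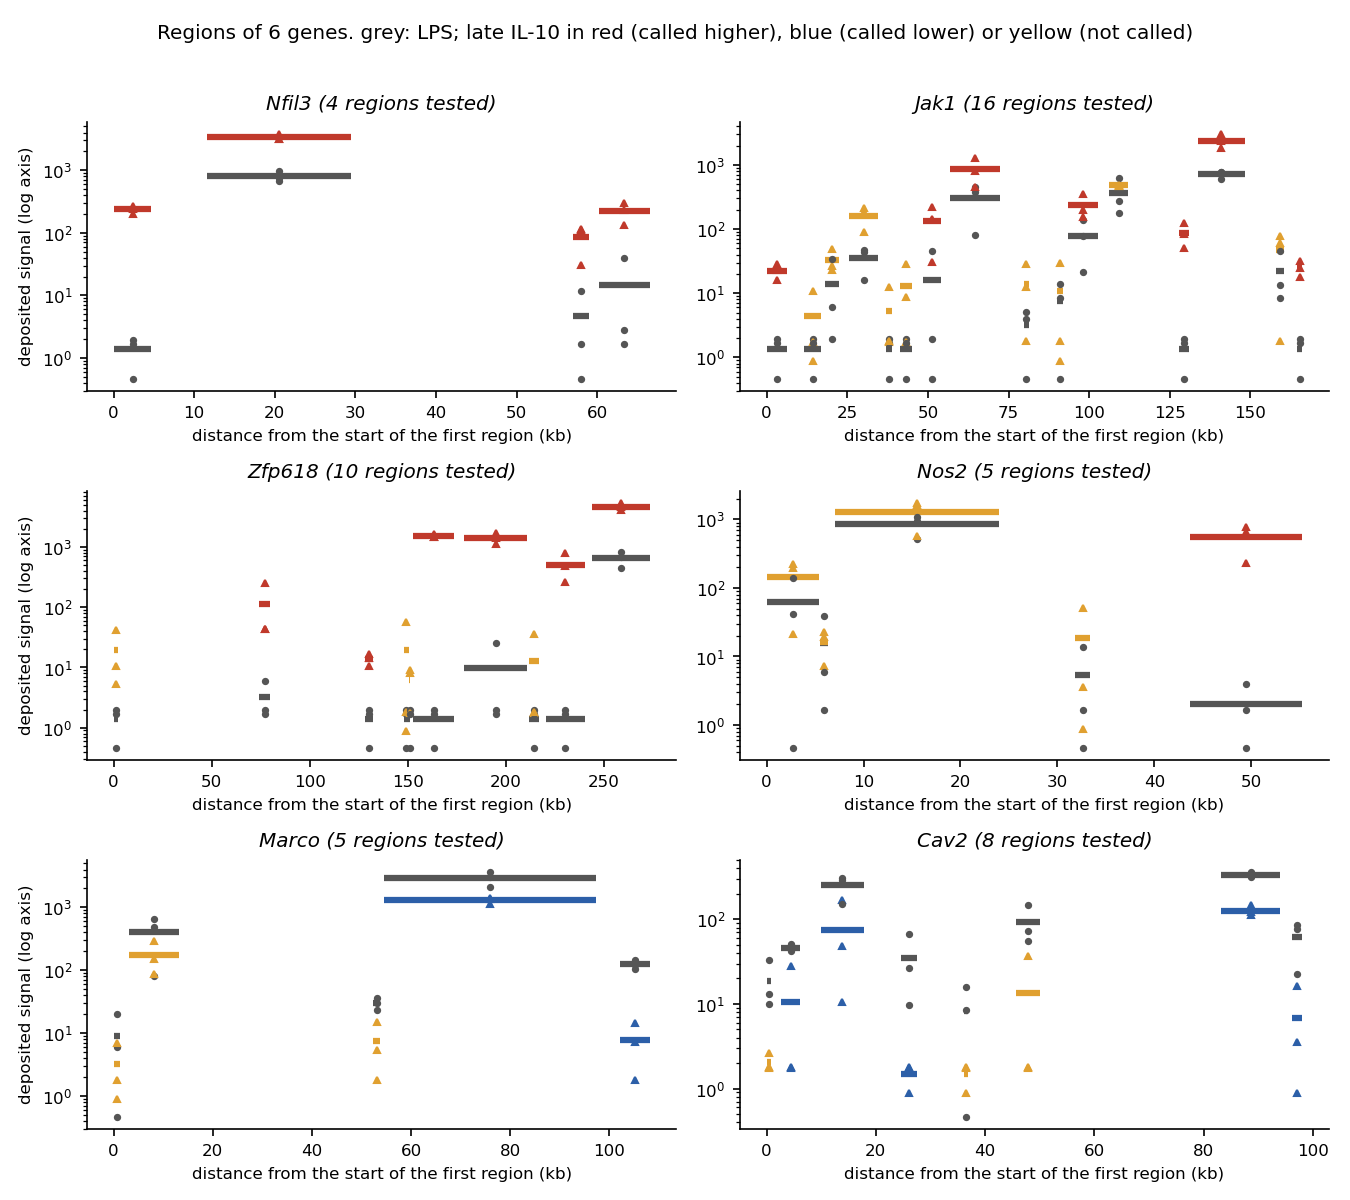
Mean deposited signal (log axis) of each tested region of 6 genes with LPS (grey) and late IL-10 (red where called higher, blue where called lower, yellow where not called), with the 3 libraries as points and the distance from the first region in kb. The increases at Jak1 and Zfp618 lie in several regions, that of Nos2 in 1 region, and the decrease at Cav2 in 5 of 8 regions.

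The 2 IL-10 schedules were set side by side for 28 genes named whatever their result, and compared directly only through the test of late against continuous IL-10. Both were compared with the same LPS libraries, so their differences from LPS are not independent of each other. Over all genes, 9.69% were higher and 7.17% lower with late than with continuous IL-10, and against LPS 7.33% were higher and 10.2% lower with continuous IL-10. Of the 28 genes, 14 were higher and 1 was lower with late than with continuous IL-10. At Il6 the difference from LPS was -0.20 for late and -9.01 for continuous IL-10, and at Rsad2 it was -0.41 and -3.72. The continuous Il6 values lay at or near the floor, so -9.01 describes the deposited values only. Nfil3 showed 2.26 and 1.22, and Bcl3 1.87 and 1.06, and both were higher with the late than with the continuous schedule (late minus continuous 1.04 and 0.81, adjusted p = 0.00746 and 0.0109). For Tnf the values were -0.72 and -0.82, for Marco -1.19 and -1.12, for Nfkbiz -0.92 and -0.87, and for Socs3 0.80 and 0.64. None of these 4 passed the test of late against continuous IL-10 (adjusted p between 0.608 and 0.91), which does not show that they were alike.

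Late and continuous IL-10 differed at many listed genes. Of the 29 cytokine genes, 17 were higher and none was lower with late than with continuous IL-10, and of the 28 interferon genes 22 were higher and none was lower. Among the 25 IL-10 and STAT3 targets 9 were higher and 2 lower. Of all genes, 9.69% were higher and 7.17% lower. The 2272 genes called in this comparison fell to 344 without the block, and to between 856 and 2200 with 1 library left out. How the list counts moved in those fits is not given here. Jak1, not called with continuous IL-10 (0.12 against LPS), was higher with late than with continuous IL-10 by 1.38 (adjusted p = 0.000541), and Mrc1 by 2.02 (adjusted p = 7.73e-05). Etv3 and Il1rn were higher by 1.34 and 1.38 (adjusted p = 0.000377 and 0.00214).

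**Figure D5:**
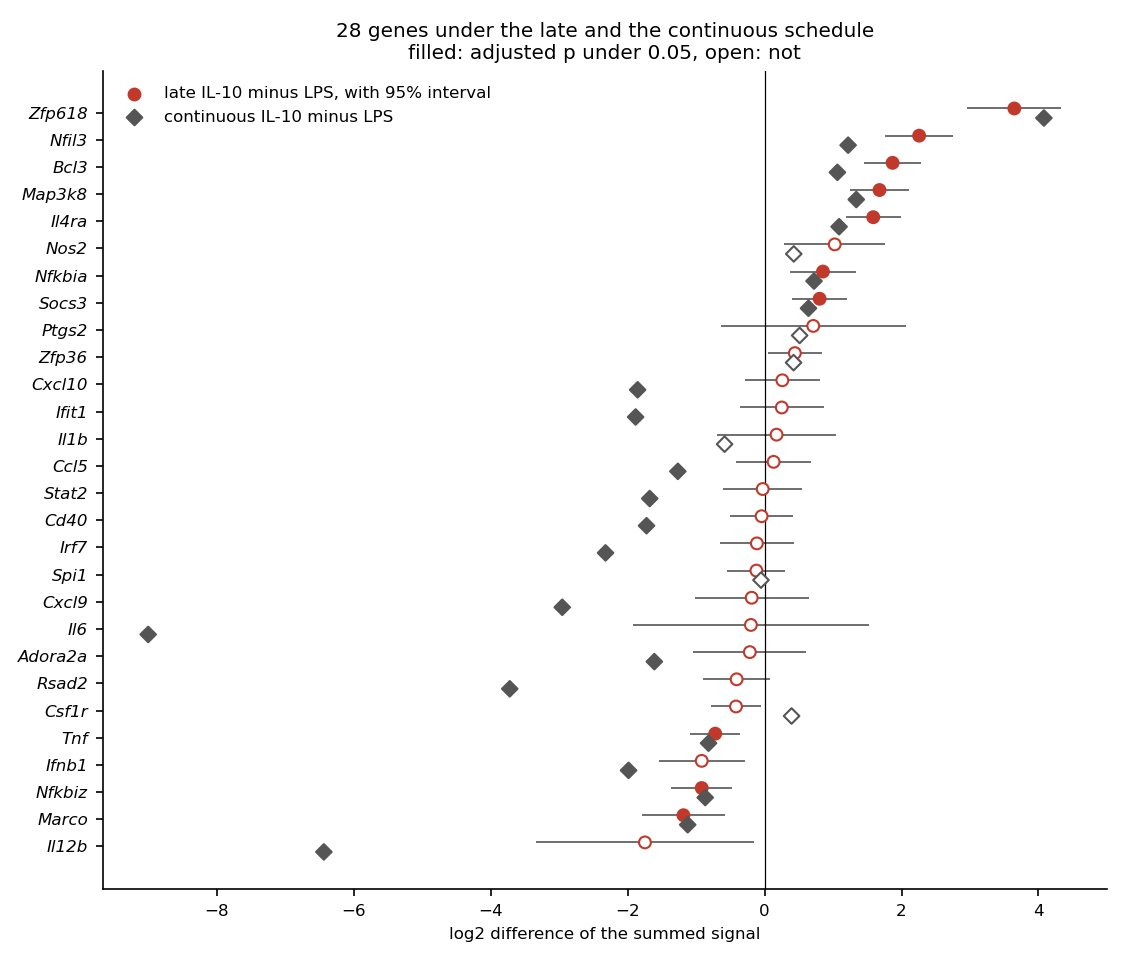
Log2 difference of the summed signal from LPS for 28 genes under late IL-10 (circles, with 95% intervals) and continuous IL-10 (diamonds), filled where the adjusted p is under 0.05. Il6, Il12b, Rsad2 and Cxcl9 lie far lower under the continuous schedule, where Il6 is at or near the floor, and Nfil3 and Bcl3 lie higher under the late one.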

How the data were processed

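H3K27ac ChIP-seq was analysed for 3 LPS and 3 late IL-10 libraries, with 3 untreated and 3 continuous IL-10 libraries in the same fit. The input library, which has no column, was not used here. The table the authors deposited holds a signal for 40691 consensus regions (mm10) in each library, and the submitters' processing notes name Trim Galore, Bowtie2, MACS2 and DiffBind, with no versions or roles. Of the deposited signal values 100% were a whole number of reads times 1 factor per library, within 0.0001 of a read, so reads could be recovered. No value was below 1 read. The sources used here do not say whether input or background was subtracted, and a region at that value is not shown to be free of the mark.

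Values were transformed as log2(signal + 1) and tested in limma 3.58.1 (R 4.3.3, trend and robust moderation) on all 12 libraries, with group and replicate number as terms. Features whose mean was at or under the 10th percentile were left out, p-values were adjusted by Benjamini and Hochberg over all features tested, and an adjusted p under 0.05 is called. Every adjusted p in the text is from limma unless edgeR (4.0.16) or DESeq2 (1.42.0), both run on the recovered reads, is named. Differences on this scale understate changes of low values. Regions went to every protein-coding RefSeq gene they overlapped (27528 regions) or to the nearest within 100 kb (10314), and 2849 had none. Signal was summed over the regions of a gene, so genes that share a region share its reads.

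The labels describe 3 independent pools of macrophages per group. Replicate numbers were taken to pair libraries of 1 pool, since the deviations of the 3 same-numbered pairs of LPS and late IL-10 libraries from their group means correlated at between 0.442 and 0.712. Over all 18 such pairs of the 4 groups the lowest was 0.0993. Of the 12 libraries, 11 correlated best with a library of their own number. Continuous IL-10 replicate 1 did not, at 0.370 with late IL-10 replicate 2 and 0.258 with late IL-10 replicate 1. LPS replicate 1 with late IL-10 replicate 2 gave 0.232, and LPS replicate 2 with late IL-10 replicate 1 gave 0.219. The pairing of pools 1 and 2 is thus less marked than that of pool 3. Replicate 3 had the most reads in regions and the lowest floor in each of the 4 groups. A shared pool and a shared depth therefore cannot be told apart for replicate 3, and the part of depth in these correlations was not tested. With 3 libraries a group, the smallest p of an exact permutation test is 0.1, and such tests were not run. The code was tested on simulated data. Counting error is largest in regions near the floor.

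Regions were named by a rule: the 8 with the largest difference in each direction among those called, moving 1 way in all pools, not overlapping and above the median level. Genes were named by the same rule with 10 in each direction, plus up to 4 called members of each list in each direction, and 28 genes whatever their result. Some genes that this rule picks are not reported here. The members and lists were chosen with earlier results of these data known. Alternatives were no block, the 6 libraries alone, other pseudocounts and filters, median centring, edgeR, DESeq2, other gene values, and leaving out each library. A pseudocount of 64 and leaving out all replicate 3 libraries were chosen after seeing the data.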

Additional observations from a re-analysis of the deposited data

Results flagged for a closer look

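Of the 28 genes named whatever their result, 15 differed between the late and the continuous schedule in the test of that difference (limma), 14 higher and 1 lower with late IL-10. In the same test 9.69% of all genes were higher and 7.17% lower. These calls are from the fit with the block, and no other fit of this comparison is given for single genes. The cytokine and chemokine genes had log2 differences, late minus continuous, of 8.80 for Il6 (adjusted p = 7.4e-05), 4.69 for Il12b (0.00164), 2.77 for Cxcl9 (0.00038), 2.11 for Cxcl10 (0.000115) and 1.40 for Ccl5 (0.00214). Il6 lay at or near the floor with continuous IL-10, so 8.80 describes the deposited values only. Cd40 was higher with late IL-10 by 1.68 (adjusted p = 0.000167). The interferon genes were higher too, Ifnb1 by 1.07 (adjusted p = 0.0227), Irf7 by 2.21 (7.4e-05), Stat2 by 1.65 (0.00106), Rsad2 by 3.31 (7.36e-07) and Ifit1 by 2.14 (0.000239). For Bcl3 and Nfil3, which rose against LPS under the late schedule, the values were 0.81 and 1.04 (adjusted p = 0.0109 and 0.00746). Adora2a, an adenosine receptor gene, differed by 1.39 (adjusted p = 0.025), with 3811, 5304 and 3476 under LPS and 4068, 4755 and 2317 under late IL-10. Csf1r went the other way, at -0.81 (adjusted p = 0.00532), with 2952, 3092 and 4151 under late and 5780.1, 5744 and 6176 under continuous IL-10.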

How the results depend on the processing

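The replicate block had the largest effect. Without it 1149 regions were higher and 145 lower, 430 genes were higher and 35 lower, and late against continuous IL-10 gave 992 regions and 344 genes in place of 4754 and 2272. Of the regions called with the block, 1147 of the 2258 higher and 145 of the 704 lower were called without it as well. Without all replicate 3 libraries 1467 regions were higher and 415 lower. DESeq2 called 1172 and a pseudocount of 64 called 1181 regions lower. For genes, the lower count was 263 in edgeR, 228 with centring and 270 with the strongest region only, and the fit of the 6 libraries alone gave 1437 higher and 1151 lower. Leaving out 1 library gave between 1363 and 1758 regions higher and between 203 and 649 lower, and between 524 and 861 genes higher and between 88 and 357 lower. For late against continuous IL-10 it gave between 1921 and 4529 regions and between 856 and 2200 genes. Why the counts moved was not tested. The share of gene calls that were higher, 69.1%, was 92.5% without the block and 78.0% in edgeR.

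Of the 76 named genes 58 were called, 35 of them in every leave-out, 32 without the block and 30 in both, and none of the 58 changed sign under any alternative run. Of the 18 not called, 10 changed sign. Leaving out 1 library gave log2 differences from -1.17 to 0.41 for Il6, -0.31 to 0.43 for Il1b, -0.54 to 0.052 for Cxcl9, -0.057 to 0.50 for Cxcl10, -0.14 to 0.45 for Ccl5, -0.18 to 0.051 for Cd40, -0.30 to 0.078 for Irf7, -0.16 to 0.14 for Stat2, -0.44 to 0.13 for Adora2a and -0.22 to 0.011 for Spi1. Il6 was at 0.030 with overlapping regions only, and without all replicate 3 libraries Il1b was at -0.094, Irf7 at 0.15 and Stat2 at 0.15. Cd40 was at 0.026 in DESeq2, 0.0051 in edgeR and 0.069 with centring, and Stat2 at 0.059, 0.037 and 0.085. For these genes neither a direction nor its absence is shown.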

Other observations

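Some genes had calls in most of their regions. Of the 14978 genes with a region, tested or not, 1546 had at least 1 region higher with late IL-10, and 155 had 3 or more. Over all tested regions 6.17% were higher and 1.92% lower. The genes named here were chosen after their values were seen. Auh, which encodes an enzyme of leucine breakdown and lies beside Nfil3, had 10 of 11 tested regions higher. Rab31, a GTPase gene of vesicle traffic, had 7 of 8 higher, and Hecw2 and Ergic1 had 7 of 9 each. Babam2 and Fggy had 11 higher each, of 23 and 21 tested. Long genes and genes in sparse neighbourhoods hold more regions, so these counts do not rank genes by the size of their change.

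Genes with at least 1 lower region numbered 584 of the same 14978, beside 1.92% of all tested regions called lower. Apbb2 had 7 of 18 tested regions lower, Hacd4 4 of 6 and Art2b 4 of 5. Blnk, an adaptor gene of B cell receptor signalling that macrophages also express, had all 3 of its regions lower. In 48 genes regions were called in both directions, as in Ankrd44 with 2 higher and 4 lower of 13 tested and in Maf with 2 higher and 3 lower of 8.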
